A study of Mus musculus with 360 samples.

Results

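The hearts of 20 unexposed mice were compared, 10 that served as the 0 ppm controls of the 1,2-Dichlorobenzene (1,2-DCB) series and 10 that served as those of the 1,4-Dichlorobenzene (1,4-DCB) series. They are the heart libraries with a concentration of 0 ppm that the labels mark as used, 20 of 72 used heart libraries and of 360 libraries in the study. Both groups were female B6D2F1/Crl (BDF-1) mice, the F1 cross of C57BL/6 and DBA/2, aged 9 weeks. The study exposed such mice to 5 concentrations of either isomer and took heart, kidney, liver, lung and ovary on study day 5. The lowest concentrations, 1 and 10 ppm, were used for both isomers, with 5 mice a group in heart. No control animal had received either compound, so the groups differ in the series they belong to and in whatever handling came with it. A small piece of heart was kept in RNAlater and its RNA extracted with a QIAzol and column method; no date, room or plate is given.

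The heart draws most of its ATP from mitochondrial oxidation of fatty acids, in cardiomyocytes that are fed by a dense capillary bed. Resident macrophages and endothelial cells are among the cells that express its antigen-presentation and interferon-response genes. These genes are low at rest and rise with local or systemic immune activation. In bulk tissue such as these pieces of heart, fewer cells of a type and less RNA per cell cannot be told apart.

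RNA was counted with TempO-Seq, in which detector oligonucleotide pairs are ligated on a target RNA and sequenced, on a panel of 3154 probes for 2756 genes. Deposited totals ran from 8.60 to 13.5 M counts in controls of the 1,2-DCB series and from 11.3 to 20.02 M in those of the 1,4-DCB series. Heart libraries of the 1,2-DCB series carry library numbers 1 to 37 and those of the 1,4-DCB series 38 to 72, so series and library number cannot be told apart. The 13 probes of the cardiomyocyte list summed to 231323 to 346868 CPM (probe counts scaled to a common library size) in one series and 273768 to 327277 CPM in the other, so the markers of the labelled tissue were abundant in all 20. Slc22a6, a kidney tubule transporter, was at 0 in all 20 libraries. The hepatocyte list summed to 117.5, 65.4, 55.6 and 38.9 CPM in animals 6, 5, 3 and 8 of the 1,2-DCB series. In the 1,4-DCB series it summed to 0.151 to 15.4 CPM. Of its 4 probes tested between the series, 3 were positive and 1 negative, with 0 called. The lung epithelium probe was at 13.7 CPM in animal 6 of the 1,2-DCB series, against 0 to 2.97 CPM in the 1,4-DCB series. The part of these signals in the results was not tested. Which wall or chamber of the heart was taken is not given.

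Of the control animals of the 1,2-DCB series, 3 stood apart in marker genes of other cell types. Animal 4 had 2981 CPM summed over the macrophage list, against 972 to 1307 CPM in the 7 animals other than 4, 5 and 6, and 2248 CPM over the B cell list, against 279 to 634 CPM. Nearly all of the B cell sum was Cd74, the class II invariant chain, at 2242 of 2248 CPM in animal 4 and 628 of 636 CPM in animal 6. Animal 4 thus stood apart on this list by Cd74 and not by its other probes. Of the 2 probes for Ms4a1, which marks B cells, 1 was at 0 in all 20 libraries. The other was at 0.603 to 5.12 CPM in the 1,2-DCB series. Animals 5 and 6 had 294 and 295 CPM over the smooth muscle and pericyte list, against 48.5 to 83.0 CPM, and 456 and 768 CPM over the adipocyte list, against 248 to 346 CPM. The calls are therefore also given without animal 4 and without all 3. The part of these cell types in the results was not tested.

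**Figure D1:**
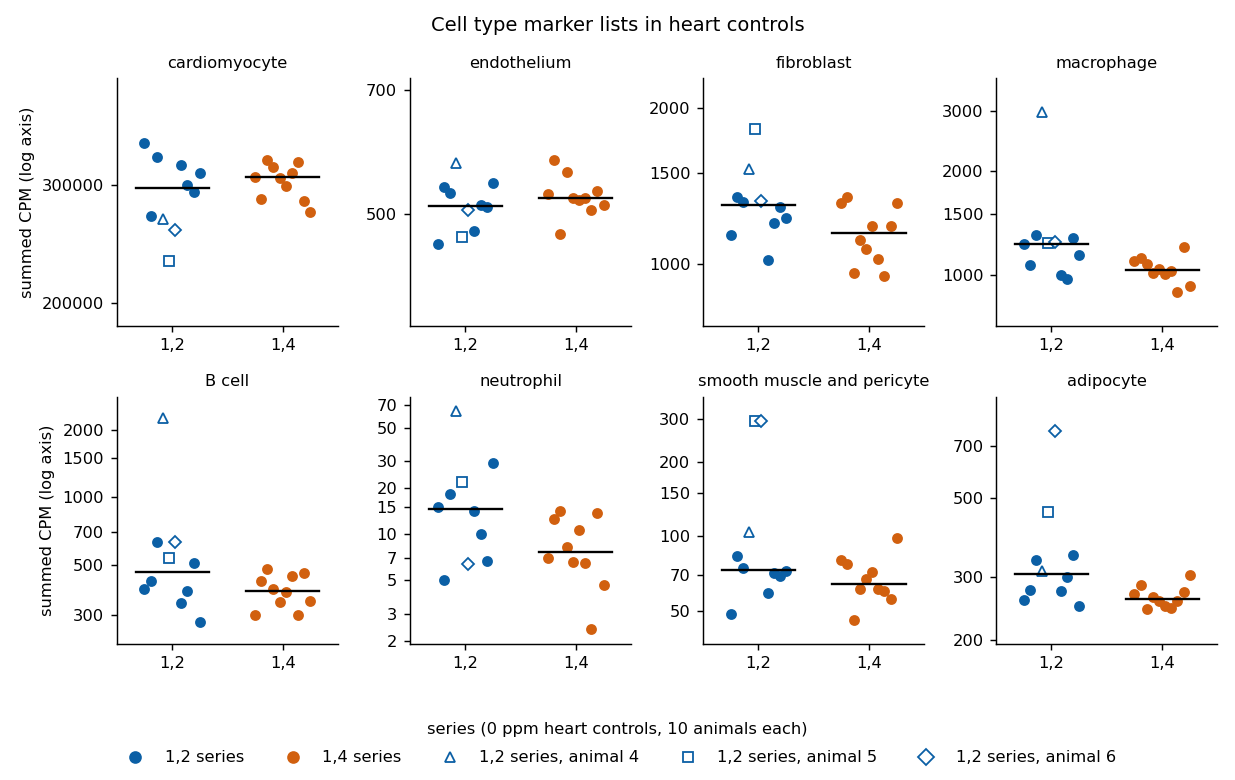
Summed CPM of cell type marker lists in each heart control, on log axes; each point is 1 animal, the bar is the group median, and open symbols mark animals 4, 5 and 6 of the 1,2-DCB series. Animal 4 lies above all others for the macrophage, B cell and neutrophil lists, and animals 5 and 6 lie above all others for the smooth muscle and adipocyte lists. The B cell sum is nearly all Cd74.

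Between the control groups, 46 of 2454 probes tested passed an adjusted p of 0.05 by edgeR's quasi-likelihood test with Benjamini-Hochberg adjustment, which is 1.87% of them. Of these, 25 were higher in the 1,4-DCB series (1.02% of probes tested) and 21 lower (0.856%). The 25 higher probes, Decr1, Cyth2, Cav1 and Col4a2 among them, had log2 differences of 0.15 to 0.84 with a median of 0.35. Of the 21 lower, 5 are on the lists of interferon response, inflammation or macrophage genes (Psmb8, Icam1, Ccl7, C1qa and C1qb). These lists have 18, 28 and 6 of the 2454 probes tested. The other lower probes are on none of the lists used. Gbp6, H2-aa, H2-k1 and Casp1 are among them, as are Tdrkh, Tuba1b, Spen and Hn1l, which were named here after their values were seen. Animal 4 was the highest control of its series for 14 of the 21 and for 14.2% of all 2454 probes. Without that animal 17 probes passed, 16 higher and 1 lower, and without animals 4, 5 and 6 the 10 probes that passed were all higher. The median log2 difference over all probes was -0.02. The share of calls that were higher was 54.3% with TMM scaling and 64.7% of 51 with upper quartile scaling. The count also fell to 21, 26, 28 and 30 without animals 8, 5, 6 and 4 of the 1,4-DCB series and to 29 without animal 5 of the 1,2-DCB series. DESeq2 called 74, of which 29 were higher and 45 lower (39.2% higher). A fit of the control libraries alone called 120, 61 higher and 59 lower (50.8% higher). With the library total, which was higher in the 1,4-DCB series, as a covariate 330 passed, 38.5% of them higher and 203 lower. The split between higher and lower thus changed sides with the method. By unadjusted p under 0.05, 398 probes (16.2%) differed. These p-values measure only the spread between animals within a series, and a difference in handling between the series cannot be told apart from the series itself.

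Decr1 differed most clearly among metabolic genes. It encodes the mitochondrial dienoyl-CoA reductase that is needed to oxidise polyunsaturated fatty acids. Its lowest, median and highest levels were 292, 353 and 493 CPM in the 1,2-DCB series and 509, 581 and 719 CPM in the 1,4-DCB series. All 10 animals of the 1,4-DCB series thus lay above all 10 of the other, with a log2 difference of 0.67 (SE 0.12, n = 10 and 10, adjusted p = 0.000510 by edgeR). Without animal 4 the difference was 0.65 (adjusted p = 0.00142), and without animals 4, 5 and 6 it was 0.58 (adjusted p = 0.0245). Of the 15 probes tested from the list of fatty acid oxidation and PPARA target genes, Decr1 was the 1 that passed; the list's median was 0.04 beside -0.02 over all probes. Its neighbours in the pathway gave 0.21 for Eci1, 0.11 for Cpt1b and 0.05 for Acadm, none of them past the threshold. Of the list's 15 probes 10 were positive and 5 negative. Without animals 4, 5 and 6 they were 7 and 8, with a median of -0.01.

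Idh3a, a catalytic subunit of the isocitrate dehydrogenase of the citrate cycle, was also higher. Its levels were 911 to 1203 CPM against 1176 to 1449.9 CPM, with medians of 1087 and 1283 CPM and a log2 difference of 0.27 (SE 0.07, n = 10 and 10, adjusted p = 0.0223 by edgeR). Its call was lost without animal 4 or animal 5 of the 1,2-DCB series (adjusted p = 0.0698 and 0.0557), where it differed by 0.25 in both fits. It was the 1 called probe of 17 from the citrate cycle and respiratory chain list, of which 15 were positive and 2 negative, with a median of 0.16. Citrate synthase (Cs) gave 0.23 and succinate dehydrogenase subunit Sdha 0.23, neither past the threshold. Without animals 4, 5 and 6 the list's median was 0.09. The cardiomyocyte list had 10 of 13 probes positive, none called, and a median of 0.16 that was 0.05 without these 3 animals; its part in the mitochondrial values was not tested.

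Cyth2 encodes a cytohesin, an exchange factor that loads ARF GTPases with GTP at membranes. Its lowest, median and highest levels were 111.2, 132.1 and 149.04 CPM in the 1,2-DCB series and 150.5, 166 and 184 CPM in the 1,4-DCB series, without overlap, and gave a log2 difference of 0.31 (SE 0.05, n = 10 and 10, adjusted p = 0.000365 by edgeR). The related Cyth1 differed by 0.24 (adjusted p = 0.0412), with 8 of 10 animals of the 1,4-DCB series above all 10 of the other. Ppp1r14c, an inhibitor of protein phosphatase, ran at 475, 615 and 749 CPM against 813, 885 and 969.9 CPM, again without overlap, with a log2 difference of 0.54 (SE 0.10, n = 10 and 10, adjusted p = 0.00104 by edgeR). Without animals 4, 5 and 6 the Ppp1r14c difference was 0.44 (adjusted p = 0.0665 by edgeR).

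Cav1, which coats the caveolae of endothelial cells and adipocytes, had levels of 87.4, 132.1 and 179.9 CPM in the 1,2-DCB series and 159, 203 and 239 CPM in the 1,4-DCB series. The groups overlapped slightly, and the log2 difference of 0.65 (SE 0.15, n = 10 and 10, adjusted p = 0.0126 by edgeR) was a little larger without animal 4, at 0.71 (adjusted p = 0.00553). The 7 probes of the endothelial list had a median of -0.13, none passed, and the list's summed level was 461 to 574 CPM against 473 to 578 CPM. Itgb1, the common beta chain of matrix-binding integrins, was higher by 0.15 (adjusted p = 0.0262) on the log2 scale, and Itgb1bp2, a muscle protein that binds it, by 0.33 (adjusted p = 0.0354). The actin-binding genes Pfn1 (profilin) and Fscn1 (fascin) were higher by 0.19 (adjusted p = 0.0262) and 0.42 (adjusted p = 0.0472). These last 4 genes and Cyth1 lie outside the rule for named genes and were picked after their values were seen.

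Basement membrane chains were represented by Col4a2, a collagen IV chain, and Lama3, a laminin alpha chain. Col4a2 had levels of 333, 396 and 538 CPM in the 1,2-DCB series and 502, 555 and 597 CPM in the 1,4-DCB series; animal 9 of the 1,2-DCB series reached into the upper group. Its log2 difference of 0.43 (SE 0.08, n = 10 and 10, adjusted p = 0.00122 by edgeR) was 0.42 without animal 4. Lama3 was a low gene at 1.41, 5.90 and 7.41 CPM against 7.98, 9.43 and 12.5 CPM, and the groups did not overlap, with a log2 difference of 0.79 (SE 0.16, n = 10 and 10, adjusted p = 0.00122 by edgeR). Col4a2 was the 1 called probe of 24 from the matrix list, whose median was 0.01.

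Col4a1 starts beside Col4a2 on the opposite strand, and its difference was 0.26 (adjusted p = 0.140). The 250 bases before each start are shown because the genes start head to head: in RefSeq's GRCm38.p6 table the starts lie 21 bases apart, with windows at chr8:11312827-11313076 (minus strand) and chr8:11312555-11312804 (plus strand). The transcribed stretches overlap at their starts, so the windows share 0 bases and each lies inside the other gene's transcribed stretch. Capitals mark CCAAT and GGGCGG on either strand, which occur in 33.8% and 32.7% of all 250-base windows of the table.
Col4a1: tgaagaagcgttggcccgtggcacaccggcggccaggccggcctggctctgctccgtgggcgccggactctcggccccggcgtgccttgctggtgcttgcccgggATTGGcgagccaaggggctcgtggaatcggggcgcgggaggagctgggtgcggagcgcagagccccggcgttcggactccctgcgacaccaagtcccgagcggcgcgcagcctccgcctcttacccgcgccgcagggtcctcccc
Col4a2: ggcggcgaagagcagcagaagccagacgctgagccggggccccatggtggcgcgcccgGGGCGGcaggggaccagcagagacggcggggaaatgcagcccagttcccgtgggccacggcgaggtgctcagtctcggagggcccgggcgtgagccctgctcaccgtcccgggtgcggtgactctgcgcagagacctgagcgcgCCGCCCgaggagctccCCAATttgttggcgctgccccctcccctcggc
The window of Col4a1 holds 1 CCAAT match and no GGGCGG, and that of Col4a2 holds 1 and 2. They are described as letters in the C57BL/6 reference; these mice carry a DBA/2 copy as well.

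Bcl2l2, a pro-survival BCL-2 family member, had the smallest p, with levels of 25.9, 33.6 and 39.2 CPM and 38.7, 43.2 and 48.9 CPM and a log2 difference of 0.41 (SE 0.07, n = 10 and 10, adjusted p = 0.000365 by edgeR). In 8 of 10 animals of the 1,4-DCB series it lay above the highest of the 1,2-DCB series. Eif4ebp1, the repressor of cap-dependent translation that mTOR switches off, ran at 46.3, 53.5 and 64.7 CPM against 61.7, 73.1 and 75.2 CPM, with a log2 difference of 0.38 (SE 0.07, n = 10 and 10, adjusted p = 0.00104 by edgeR). Dnmt3a, a DNA methyltransferase, had medians of 146.9 and 190.0 CPM and differed by 0.35 (adjusted p = 0.00918). Without animals 4, 5 and 6 it differed by 0.30 (adjusted p = 0.144 by edgeR). Arid4b, a chromatin corepressor subunit, had medians of 16.8 and 23.5 CPM and differed by 0.46 (adjusted p = 0.00159).

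Stk25, a Ste20-family kinase, ran at 0.990 to 3.55 CPM against 2.75 to 4.54 CPM and differed by 0.84 (SE 0.20, adjusted p = 0.0125). Dnajb2, a cochaperone of HSP70, ran at 1.04 to 3.25 CPM against 2.42 to 5.41 CPM and differed by 0.82 (SE 0.19, adjusted p = 0.00963). Without animals 4, 5 and 6 it differed by 0.79 and lost its call (adjusted p = 0.0803 by edgeR). Shb, an SH2-domain adaptor, differed by 0.61 (adjusted p = 0.0223), and lost its call without animal 4 or animal 5 of the 1,2-DCB series (adjusted p = 0.0573 and 0.0557). Of the 15 higher genes that the naming rule gave, 13 passed without animal 4 and 9 without animals 4, 5 and 6; all 15 kept a positive sign in both fits. Among the 6 that lost their calls without the 3 animals, Shb, Idh3a and 0610010K14RIK gave an adjusted p of 0.268, 0.306 and 0.214 by edgeR, with differences of 0.53, 0.22 and 0.17. The median difference of the 15 was 0.46 with all controls and 0.44 without the 3 animals. Leaving animals out also leaves fewer controls, so a call can be lost with little change in the difference.

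**Figure D2:**
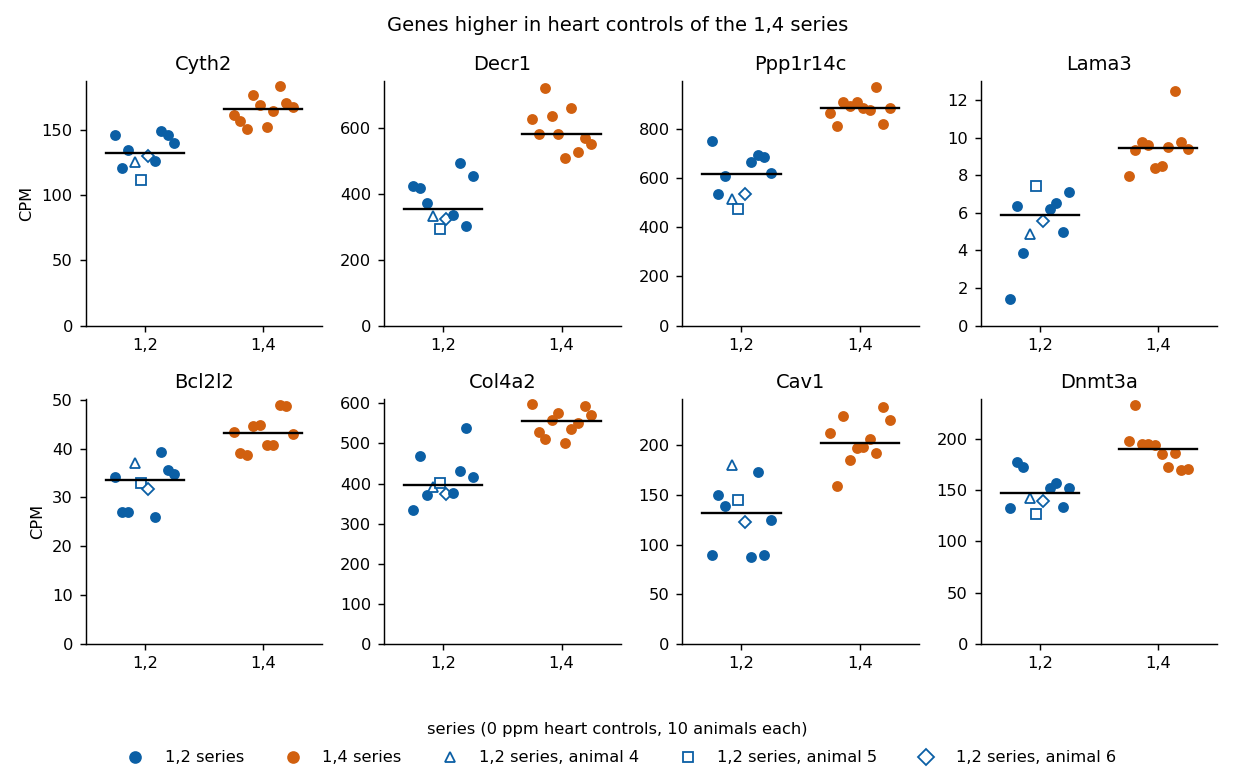
CPM of 8 genes that were higher in heart controls of the 1,4-DCB series, 1 point per animal, with the group median as a bar; open symbols mark animals 4, 5 and 6 of the 1,2-DCB series. The groups do not overlap for Cyth2, Decr1, Ppp1r14c and Lama3, and overlap by 1 or more animals for the others.

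Among the lower genes, H2-aa is the alpha chain of a class II molecule, H2-k1 a class I heavy chain, Psmb8 an interferon-inducible subunit of the immunoproteasome that makes class I peptides, and Icam1 an adhesion molecule for leukocytes. The 250 bases before their starts are shown because all 4 were called lower and such genes are known to respond to interferon or NF-kappa-B signalling. Their places in RefSeq's GRCm38.p6 table are chr17:34287824-34288073 (minus strand), chr17:34000348-34000597 (minus strand), chr17:34197945-34198194 (plus strand) and chr9:21015690-21015939 (plus strand). Capitals mark, on either strand, GGNNNTTCC (a core of the NF-kappa-B motif), GAANNGAAA (a core of the interferon response motif), CCAAT and GGGCGG; the first occurs in 15.7% and the second in 6.31% of all 250-base windows.
H2-Aa: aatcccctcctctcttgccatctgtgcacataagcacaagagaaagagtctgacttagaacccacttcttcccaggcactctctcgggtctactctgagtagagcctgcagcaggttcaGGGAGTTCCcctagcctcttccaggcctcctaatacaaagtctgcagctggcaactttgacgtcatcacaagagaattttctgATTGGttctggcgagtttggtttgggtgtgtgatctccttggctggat
H2-K1: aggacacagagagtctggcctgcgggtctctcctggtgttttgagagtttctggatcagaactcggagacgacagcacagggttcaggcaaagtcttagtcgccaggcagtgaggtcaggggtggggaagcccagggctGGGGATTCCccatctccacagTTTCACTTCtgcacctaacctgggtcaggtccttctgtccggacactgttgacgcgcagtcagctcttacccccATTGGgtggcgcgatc
Psmb8: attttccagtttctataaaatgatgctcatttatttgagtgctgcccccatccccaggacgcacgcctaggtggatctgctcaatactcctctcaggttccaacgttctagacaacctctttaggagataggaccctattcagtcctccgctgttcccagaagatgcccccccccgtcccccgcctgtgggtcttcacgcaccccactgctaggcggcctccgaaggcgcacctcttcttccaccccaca
Icam1: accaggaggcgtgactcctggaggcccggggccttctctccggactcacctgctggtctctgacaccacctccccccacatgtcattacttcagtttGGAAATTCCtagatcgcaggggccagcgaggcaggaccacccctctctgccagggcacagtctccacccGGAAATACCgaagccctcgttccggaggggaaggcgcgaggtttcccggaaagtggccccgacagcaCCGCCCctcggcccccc
H2-K1 holds the first motif, the second and CCAAT once each, H2-Aa the first and CCAAT once each, and Icam1 the first at 2 places and GGGCGG once. The window of Psmb8 holds none of these letters, which says nothing of the factors that bind there. RefSeq's table holds 2 start sites for H2-K1, and the window of the first is shown. Like the collagen windows, these are letters of the reference, and these mice carry a DBA/2 copy as well.

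Gbp6, an interferon-induced GTPase of cell-autonomous defence, had the smallest p among the lower genes. Its lowest, median and highest levels were 11.6, 15.1 and 45.03 CPM in the 1,2-DCB series and 6.92, 8.72 and 12.8 CPM in the 1,4-DCB series, and no animal of the latter was above the former's median. The highest value was that of animal 4, with 18.7 CPM next to it. The log2 difference of -1.0003 (SE 0.19, n = 10 and 10, adjusted p = 0.00104 by edgeR) became -0.73 (adjusted p = 0.0111) without animal 4, the 1 lower probe that still passed. Without animals 4, 5 and 6 the Gbp6 difference was -0.68 (adjusted p = 0.0921 by edgeR).

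H2-aa was at 18.04, 38.5 and 204 CPM in the 1,2-DCB series, with 49.3 CPM as the highest value outside animal 4, and at 19.5, 24.5 and 34.4 CPM in the 1,4-DCB series. Its log2 difference of -0.99 (SE 0.24, n = 10 and 10, adjusted p = 0.0188 by edgeR) was -0.43 (adjusted p = 0.281) without that animal. The groups overlapped over most of their range once that 1 value was set aside, and no other single control ended the call. H2-k1 was at 30.8, 49.6 and 143.3 CPM in the 1,2-DCB series, with 60.2 CPM as the highest value outside animal 4, and at 28.95, 35.98 and 45.1 CPM in the 1,4-DCB series. Its log2 difference of -0.67 (SE 0.17, n = 10 and 10, adjusted p = 0.0223 by edgeR) was -0.40 (adjusted p = 0.182) without that animal. Its call was also lost without animal 8 of the 1,4-DCB series (adjusted p = 0.0581). H2-q7 and H2-Q6, class I genes of the Q region, differed by -0.74 (adjusted p = 0.0336) and -1.06 (adjusted p = 0.0416), and by -0.43 (adjusted p = 0.248) and -0.77 (adjusted p = 0.205) without animal 4. They lost their calls in 8 and 11 of the 20 fits without 1 control (adjusted p = 0.0540 to 0.248 and 0.0550 to 0.205). Probes of such near-identical, strain-variable genes may share reads, so the 3 class I values are uncertain as separate genes.

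Psmb8 was at 181, 222 and 538 CPM in the 1,2-DCB series, with 252 CPM as the highest value outside animal 4, and at 149.3, 186 and 204 CPM in the 1,4-DCB series. Its log2 difference of -0.44 (SE 0.11, n = 10 and 10, adjusted p = 0.0260 by edgeR) was -0.24 (adjusted p = 0.179) without that animal. Leaving out animal 6 or animal 8 of the 1,4-DCB series also ended its call (adjusted p = 0.0560 and 0.0576). The panel's second Psmb8 probe differed by 0.06 (adjusted p = 0.961). C1qa and C1qb, chains of the complement factor that resident macrophages make, differed by -0.59 (adjusted p = 0.0304) and -0.51 (adjusted p = 0.0302), with medians of 60.4 and 48.4 CPM for C1qa and medians of 95.9 and 81.8 CPM for C1qb. Without animal 4 they differed by -0.35 (adjusted p = 0.215) and -0.26 (adjusted p = 0.227). All 10 animals of the 1,4-DCB series lay below the other series' median for both. Their calls also ended without animal 5 of the 1,2-DCB series and without animals 5 and 8 of the 1,4-DCB series (adjusted p = 0.0561, 0.0668 and 0.0687 for C1qa, adjusted p = 0.0531, 0.0576 and 0.0687 for C1qb). In the fit of the control libraries alone, H2-aa, H2-k1, H2-q7, Psmb8, C1qa and C1qb gave an adjusted p of 0.0701, 0.0511, 0.0800, 0.0633, 0.0533 and 0.0800; all 6 missed the threshold there.

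Icam1 was at 37.1, 55.1 and 111.02 CPM in the 1,2-DCB series, with 58.9 CPM as the highest value outside animal 4, and at 36.3, 39.04 and 45.5 CPM in the 1,4-DCB series. Its log2 difference of -0.52 (SE 0.14, n = 10 and 10, adjusted p = 0.0324 by edgeR) was -0.36 (adjusted p = 0.182) without that animal. Leaving out animal 4, 5 or 6 of the 1,4-DCB series ended it too (adjusted p = 0.0572, 0.0539 and 0.0560). Ccl7, a monocyte-attracting chemokine, ran at 12.8 to 74.8 CPM against 10.3 to 20.9 CPM, and its difference of -0.82 (adjusted p = 0.0436) was -0.47 (adjusted p = 0.302) without animal 4; it lost its call in 11 of the 20 fits without 1 control (adjusted p = 0.0524 to 0.302). Casp1, the inflammasome protease, ran at 1.70 to 5.21 CPM against 1.35 to 2.62 CPM, with a difference of -0.82 (adjusted p = 0.0478) that lost its call in 15 of these 20 fits (adjusted p = 0.0502 to 0.131). In animal 4 it was at 5.21 CPM, next to 4.53 CPM. Animal 4 mattered less for the size of 2 others: Pla2g2d, a secreted phospholipase, gave -0.67 (adjusted p = 0.0223) and -0.65 (adjusted p = 0.0521) without it, and Nr1h3, the oxysterol receptor LXR-alpha, gave -0.60 (adjusted p = 0.0262) and -0.58 (adjusted p = 0.0698). The Pla2g2d call was also lost without animal 8 of the 1,4-DCB series (adjusted p = 0.0633) and the Nr1h3 call without animal 6 of the 1,2-DCB series and animals 4, 6 and 8 of the 1,4-DCB series (adjusted p = 0.0516, 0.0502, 0.0650 and 0.0664).

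Both probes of Mmp12, the macrophage elastase, were also called lower, but averaged 3.85 and 6.90 counts a library, below the minimum of 20 for named genes; they were chosen after their values were seen. Of the 21 lower probes, 14 had their highest 1,2-DCB value in animal 4, and animal 6 was highest for 3. Of the 15 lower genes that the naming rule gave, Gbp6 was the 1 that passed without animal 4, and the median of the 15 went from -0.67 to -0.43; all 15 stayed negative. The median of the 15 higher genes was 0.46 with and 0.49 without it.

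**Figure D3:**
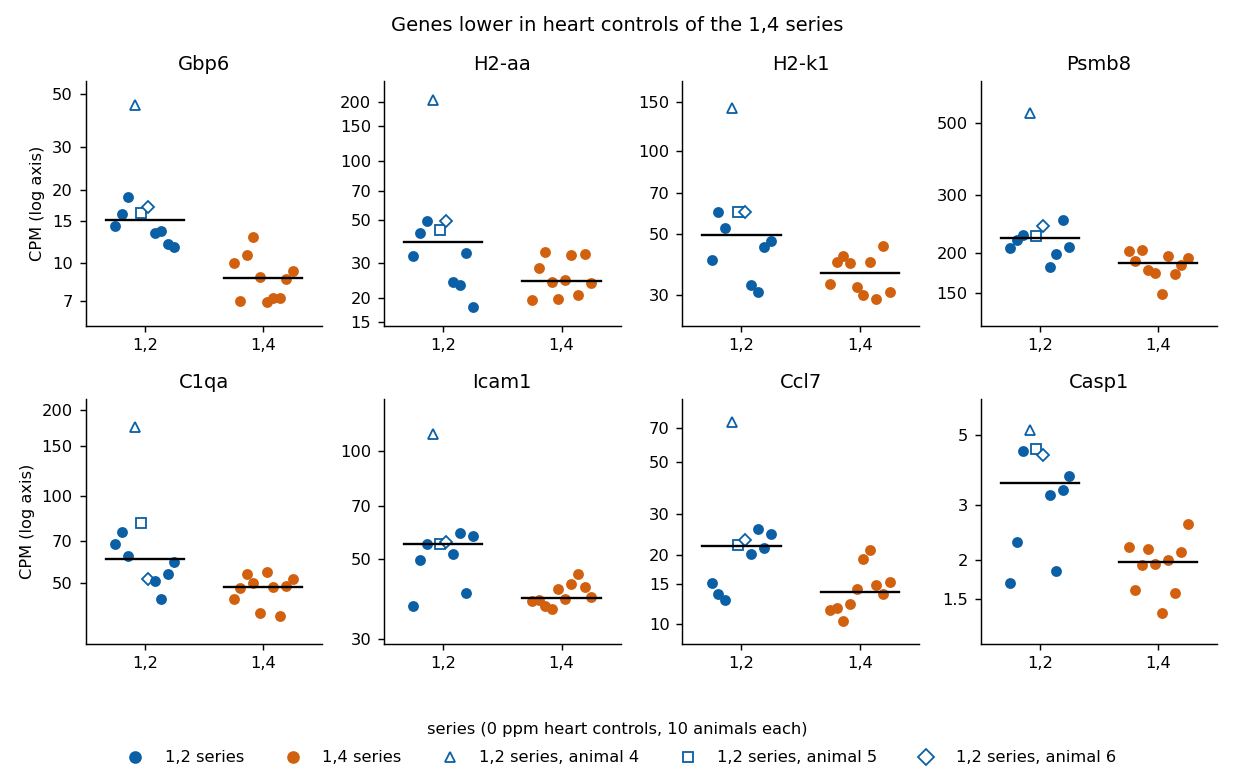
CPM on log axes of 8 genes that were lower in heart controls of the 1,4-DCB series, 1 point per animal, with the group median as a bar. Animal 4 of the 1,2-DCB series (open triangle) is the highest point in all 8 panels, and the ranges of the other 9 animals and of the 1,4-DCB series overlap in each.

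**Figure D4:**
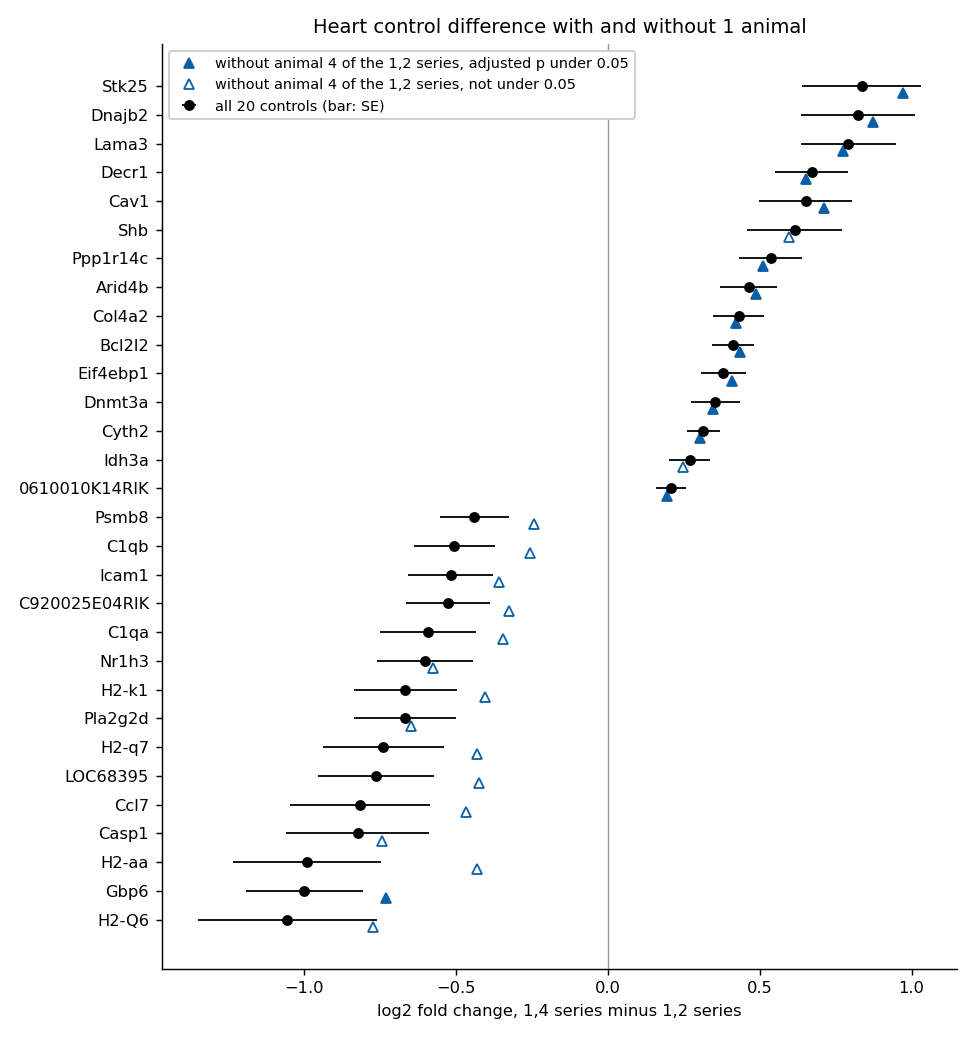
Log2 difference between the control groups (1,4-DCB minus 1,2-DCB) for the 30 named genes, with all 20 controls (circles, bars are SE) and without animal 4 of the 1,2-DCB series (triangles, filled where the adjusted p was under 0.05). Most of the 15 higher genes move little, with Stk25 going from 0.84 to 0.97, and 13 of them keep their call. Most of the 15 lower genes move toward 0 and 14 of them lose their call.

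Animal 4 also stood out for some of these genes outside the heart, and not for others. In its liver Cd74 was at 1783 CPM against 492 to 756 CPM in the 8 others, in its lung at 14933 CPM against 7455 to 14206 CPM in the 9 others and in its ovary at 5149 CPM against 1224 to 2904 CPM in the 9 others; in its heart it was at 2242 CPM against 277 to 628 CPM in the 9 others. Psmb8 was at 890.2 CPM against 465 to 653 CPM in the 8 others in liver, at 1751 CPM against 1024 to 1447 CPM in the 9 others in lung and at 1413 CPM against 628 to 992 CPM in the 9 others in ovary. C1qa was also highest in animal 4 in liver, at 288 CPM against 74.2 to 121 CPM in the 8 others, and in ovary, at 282 CPM against 87.7 to 169 CPM in the 9 others, but not in lung, at 88.7 CPM against 43.98 to 174 CPM in the 9 others. In lung its Icam1, Ccl7 and Pla2g2d levels ranked 4, 5 and 9 of 10 from the highest, and in ovary its Gbp6 level ranked 3. Of the 21 probes lower in heart, animal 4 was the highest 1,2-DCB control for 12 in liver, 13 in lung and 10 in ovary; over all probes tested there it was the highest for 20.3%, 12.6% and 12.3%. These probes were chosen in heart with this animal in the group, so the counts in other tissues, from other libraries of the same animal, are given as a description.

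The lists are read against all 2454 probes, of which 55.7% were negative and 44.3% positive, with 0.856% called lower, 1.02% called higher and a median of -0.02; none of them was tested as a list. The interferon response genes had 16 of 18 probes negative and 1 called lower (Psmb8), with a median of -0.25; without animal 4 the median was -0.15 with 13 negative and 0 called. Psmb9 gave -0.53 (adjusted p = 0.0634) and Cxcl10 -1.22 (adjusted p = 0.241). The inflammation list had 2 of 28 probes called lower (Icam1 and Ccl7) and a median of -0.23, or -0.14 without animal 4, when 0 were called. The macrophage list had 2 of 6 called lower (C1qa and C1qb), a median of -0.48, and -0.24 with 0 called without animal 4. The neutrophil list, with S100a8 and S100a9, had 0 of 4 called and a median of -1.32, and -0.84 without animal 4. The insulin and FOXO list had 11 of 12 probes positive with 1 called (Eif4ebp1), and a median of 0.16 that was 0.16 without animal 4.

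No probe of the lists for cell cycle (39 probes), heat shock and chaperones (21), NRF2 targets (23), sterol synthesis (14), hypoxia (13), glucocorticoid targets (10), immediate early genes (15), heart stress (7), p53 targets (13), ER stress (16), glycolysis (10), cytochromes P450 and conjugation (12) or metallothioneins (2) passed. Their medians ran from -0.46 for heart stress to 0.09 for glucocorticoid targets. The heart stress list had 3 probes positive and 4 negative, and its median was -0.33 without animal 4 and -0.21 without animals 4, 5 and 6. The 8 clock probes, 0 called, had a median of 0.04. Dbp, a clock output gene whose level swings over the day, was at 21.7 to 111.02 CPM against 27.01 to 90.5 CPM with medians of 56.1 and 54.9 CPM, a log2 difference of -0.01 (SE 0.29, adjusted p = 0.992).

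Complete separation of the groups was rarer than a call. All 10 values of one series lay beyond all 10 of the other for 6 of 2454 probes (0.244%), 4 higher (0.163%) and 2 lower (0.0815%) in the 1,4-DCB series. The 4 higher were Cyth2, Decr1, Ppp1r14c and Lama3. The 2 lower were not called: Clu, the secreted chaperone clusterin, ran at 1122, 1372 and 1819 CPM against 858, 916 and 1101 CPM, with a difference of -0.59 (SE 0.20, adjusted p = 0.0944), and Fah, the last enzyme of tyrosine breakdown, ran at 36.8, 41.2 and 53.5 CPM against 25.7, 33.4 and 36.1 CPM, with -0.42 (SE 0.14, adjusted p = 0.0765). Their SE comes from the spread over all 12 heart groups, which is shared in the fit.

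Whether the same genes differed in animals that were exposed was asked at 1 and 10 ppm, the concentrations both series used, with 5 animals a group; there compound and series cannot be told apart. At 1 ppm no probe passed (0 of 2454, or 0%, with edgeR and likewise 0 with DESeq2), while 5.54% had an unadjusted p under 0.05. Of the 25 probes higher in controls, 24 were positive at 1 ppm and 25 at 10 ppm, with medians of 0.17 and 0.12, against 49.2% and 49.8% of all probes. Of the 21 lower, 17 were negative at 1 ppm and 12 at 10 ppm, with medians of -0.19 and -0.10, against 50.8% and 50.2% of all probes.

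At 10 ppm 62 probes passed (2.53%), 47 higher (1.92%) and 15 lower (0.611%), and 3 of the 25 were among them: Cav1 at 0.84 (adjusted p = 0.0158), Col4a2 at 0.75 (adjusted p = 0.000108) and Stk25 at 1.07 (adjusted p = 0.0190). Col4a1, whose start lies beside that of Col4a2, passed there too, at 0.78 (adjusted p = 0.000198). Dbp differed most among the lower genes, at -2.42 (adjusted p = 0.000198), with a median of 285 CPM in the 1,2-DCB series against 34.1 CPM. With the log2 level of Dbp in each library added as a covariate, 4 probes passed at 10 ppm, while 52 passed in the controls. Dbp itself differed between the series at 10 ppm and not in the controls. At 10 ppm the covariate therefore also takes up part of the series difference, so the 2 counts cannot be compared. The part of Dbp in the calls was not tested. Without animal 203 of the 1,4-DCB series 34 passed at 10 ppm, and without animal 204 of the 1,2-DCB series 40.

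The difference between the series at 10 ppm differed from that in controls for 28 probes (1.14%), 21 upward and 7 downward, and at 1 ppm for 0 (0%; edgeR and DESeq2 alike), with 83 probes (3.38%) under an unadjusted p of 0.05. Both tests reuse the control libraries. The 28 were led by Prc1, a cytokinesis factor (2.53, adjusted p = 0.00274), the histone genes Hist1h3a (1.56, adjusted p = 0.00274) and Hist1h2bp (0.73, adjusted p = 0.00239), and downward by Dbp, the clock repressor Bhlhe40 (-0.86, adjusted p = 0.00319) and Lcn2 (-1.81, adjusted p = 0.00264). Prc1 had medians of 4.06 and 3.45 CPM in controls and of 1.42 and 5.41 CPM at 10 ppm, in the 1,2-DCB and 1,4-DCB series. With Dbp as a covariate edgeR called 0 probes, while 5.83% had an unadjusted p under 0.05. Dbp is among the 28, so that fit also takes up part of the difference it tests. Without animals 4, 5 and 6 17 passed, and without animal 203 of the 1,4-DCB series 13. Without animals 201 of the 1,2-DCB series, 202 of the 1,4-DCB series and 204 of the 1,2-DCB series 17, 17 and 18 passed.

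Over all 12 heart groups, the medians of 8 of the 25 higher probes lay above those of the 1,2-DCB series in every group of the 1,4-DCB series: Cyth2, Decr1, Lama3, Arid4b, Dnmt3a, Dnajb2, Stk25 and Cav1. Decr1 medians were 340.2 to 402 CPM over the 6 groups of the 1,2-DCB series and 435 to 581 CPM over the 6 of the 1,4-DCB series. Cav1 medians were 101 to 139.6 CPM over the 6 groups of the 1,2-DCB series and 190.5 to 276 CPM over the 6 of the 1,4-DCB series. For Cyth2 they were 132.1 to 150.9 CPM over the 6 groups of the 1,2-DCB series and 152.9 to 166 CPM over the 6 of the 1,4-DCB series, which left a narrow gap. The gap was narrow for 2 more. The highest 1,2-DCB and lowest 1,4-DCB medians were 162.3 and 163.8 CPM for Dnmt3a and 2.44 and 2.46 CPM for Dnajb2. Among the 21 lower probes this held for Gbp6 alone, with 10.8 to 17.4 CPM over the 6 groups of the 1,2-DCB series and 7.02 to 10.6 CPM over the 6 of the 1,4-DCB series. Of all 2454 probes, the 6 medians of the 1,4-DCB series lay above the 6 of the other for 24 (0.978%) and below them for 40 (1.63%). The control groups that chose these probes are among the 12, and the concentrations above 10 ppm were not the same in both series.

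**Figure D5:**
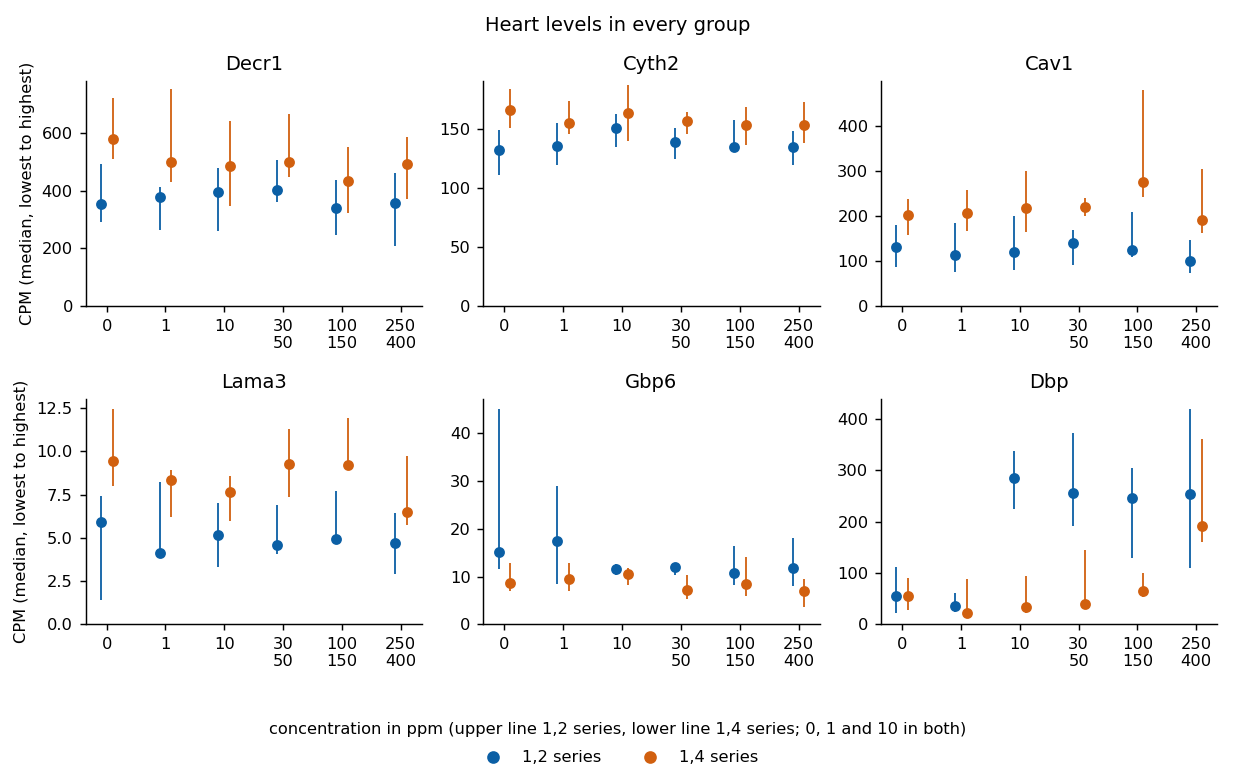
Heart CPM of 6 genes in all groups of both series; points are group medians and lines run from the lowest to the highest animal, with 10 control animals and 5 to 7 exposed animals a group. Decr1, Cyth2, Cav1 and Lama3 medians are higher in the 1,4-DCB series and Gbp6 medians lower in each group, while Dbp medians are close at 0 ppm and apart at 10 ppm, at 285 and 34.1 CPM.

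The other tissues of the control animals were compared in the same way, as other libraries of the same mice (9 and 7 used in liver, 5 and 6 in kidney, 10 and 10 in lung and ovary). Of the probes tested, 15 passed in liver (0.577%), 24 in kidney (0.879%, with 0.366% higher and 0.513% lower), 10 in lung (0.363%, all lower) and 167 in ovary (6.16%, with 1.73% higher and 4.42% lower). The direction depended on the method: DESeq2 called 9 higher and 18 lower in lung, 15 and 11 in liver and 26 and 21 in kidney, and fits of the control libraries alone gave 4 and 4 in lung and 0 and 5 in kidney. Of the 25 probes higher in heart, 24 of 25 were positive in kidney (median 0.20, against 57.8% of all probes), 17 of 25 in lung (50.8%), 13 of 25 in ovary (49.5%) and 11 of 24 in liver (47.6%). Bcl2l2 passed in kidney (0.50, adjusted p = 0.0204), and Cav1 (0.48, adjusted p = 0.0440) and Lama3 (0.68, adjusted p = 0.0375) in ovary, where Itgb1 passed in the opposite direction (-0.20, adjusted p = 0.0470). The kidney count was 1, 3, 8 and 13 without animals 8, 10, 7 and 3 of the 1,2-DCB series, 2 without animal 2 of the 1,4-DCB series, and 37, 39, 43 and 52 without animals 3, 8, 10 and 6 of that series. Of the 21 lower probes, 19 were negative in lung (49.2% of all probes), 18 in liver (52.2%), 16 in ovary (50.5%) and 5 in kidney (42.2%). Psmb8 passed in lung (-0.30, adjusted p = 0.0304) and C1qa (-0.58, adjusted p = 0.0178) and C1qb (-0.58, adjusted p = 0.00369) in ovary, with C920025E04RIK (-0.53, adjusted p = 0.00613) beside them and Tdrkh (0.38, adjusted p = 0.0423) in the opposite direction. Animal 4 is among the liver, lung and ovary controls and not among the kidney controls. The labels mark the kidney libraries of animals 4 and 6 of the 1,2-DCB series as not used for potential tissue contamination. That of animal 5 is marked as an outlier based on PCA or correlation. Kidney libraries of animals 1 and 9 of that series and of animals 1, 4 and 5 of the 1,4-DCB series carry the contamination label too.

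Whether a heart difference exceeded that of another tissue was tested within animals for lung and ovary, where all 20 controls were used. It differed between heart and lung for 25 probes (0.957%), 16 of them (64%) toward higher in heart, a share that became 45% with RLE scaling; between heart and ovary it differed for 110 (4.17%), 68 toward higher (2.58%) and 42 toward lower (1.59%) in heart, or 61.8% higher against 48.2% with RLE scaling and 43% with attenuation factors undone. Decr1 differed in both tests. Its heart difference exceeded that in lung by 0.77 (SE 0.14, adjusted p = 0.00985) and that in ovary by 0.70 (SE 0.12, adjusted p = 0.00321). In lung it was at 43.5 to 90.2 CPM and 51.5 to 90.5 CPM, in ovary at 138.7 to 204 CPM and 151.1 to 211 CPM, with wide overlap in both. In kidney, where no test of the difference from heart was made, the median was 291 CPM (range 252 to 378 CPM) against 402 CPM (range 264 to 539 CPM), a log2 difference of 0.39 (SE 0.14, n = 5 and 6, adjusted p = 0.160 by edgeR). In liver it was 0.02 (n = 9 and 7, adjusted p = 0.965 by edgeR). Lama3 exceeded its lung difference by 0.93 (adjusted p = 0.00839) and Cav1 its own by 0.77 (adjusted p = 0.0363), but against ovary both tests missed the threshold (adjusted p = 0.735 and 0.608). In lung, where Cav1 is abundant, it was at 1088 to 1804 CPM and 1189 to 2061 CPM. Col4a2 exceeded its ovary difference by 0.76 (adjusted p = 0.00977), and the Gbp6 difference was more negative in heart than in ovary, by -0.95 on this scale (adjusted p = 0.0382). Against lung neither Col4a2 nor Gbp6 passed.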

How the data were processed

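Probe counts of TempO-Seq libraries were used as deposited: the authors' counts are whole numbers per probe, not scaled between libraries, that the deposited table's name calls attenuation adjusted, and 59 of 3154 probes held whole multiples of a factor of 2 to 21 in all libraries with counts (a median of 33.4% of heart counts). The submitters' processing notes name the aligner Bowtie 1.3.1; the build and probe manifest are not given in the sources used here. All 72 heart libraries labelled as used, in 12 groups, entered 1 model in edgeR 4.0.16 (R 4.3.3; TMM scaling, filterByExpr, quasi-likelihood F-test), which kept 2454 probes; tests were two-sided, with Benjamini-Hochberg adjustment over all probes and a threshold of 0.05. SE is the log2 difference over the root of F. CPM use the effective library size. Differences between tissues were fitted with the animal as a block. Alternatives were DESeq2 1.42.0, other scalings, filters, covariates and libraries left out. Named genes are called probes with a mean of at least 20 counts: the 12 smallest p and 6 largest changes each way, up to 4 members of a list, up to 3 each way in other contrasts, and any clock or marker gene. Members of lists named without passing were picked after their values were seen. Members, lists and rule were chosen with earlier results of these data known. The pipeline was tested on simulated heart counts with 200 of 2444 probes changed between the controls. It recovered 57% of log2 changes of 0.5 and 85% of those of 1, and 11 of its 153 calls were false. Of 90 within-group pairs of control libraries none were copies (smallest chi-square per degree of freedom 10.8). Reads carry no molecular identifiers. RefSeq promoter windows (GRCm38.p6) matched 31 of 45 called genes by symbol; the motifs were picked with the calls known.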

Additional observations from a re-analysis of the deposited data

Results flagged for a closer look

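The 10 values of each named gene in each control group were searched for an animal far from the others on the log2 scale. This made 60 groups of values. A chance rate of about 1 in 20 would hold only for genes chosen without regard to these values. The genes were chosen by the control difference, and of the 15 lower ones 1 kept its call without animal 4 of the 1,2-DCB series. In 13 of the 60 groups an animal lay far out, and in 10 of these it was that animal 4, at its highest value. That animal had 45.03 CPM of Gbp6, 204 CPM of H2-aa, 141.1 CPM of LOC68395, 143.3 CPM of H2-k1, 538 CPM of Psmb8, 44.5 CPM of C920025E04RIK, 279 CPM of C1qb, 174 CPM of C1qa, 111.02 CPM of Icam1 and 74.8 CPM of Ccl7. These genes are not independent of each other. Outside that animal, Lama3 was lowest in animal 1 of the 1,2-DCB series, at 1.41 CPM, and highest in animal 8 of the 1,4-DCB series, at 12.5 CPM, and Dnmt3a was highest in animal 2 of the 1,4-DCB series, at 233 CPM.

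22 differences between contrasts passed a test of the difference itself. For heart at 10 ppm against 0 ppm these were 0.73 for Hist1h2bp, 2.53 for Prc1, 1.56 for Hist1h3a, -1.81 for Lcn2, -0.86 for Bhlhe40 and -2.41 for Dbp, on the log2 scale. For the control difference in heart against lung they were 0.77 for Decr1, 0.48 for Eif4ebp1, 0.45 for Ppp1r14c, 0.93 for Lama3, 1.00 for Dnajb2, -0.66 for Nr1h3, 0.77 for Cav1 and 0.30 for Idh3a. For heart against ovary they were 0.34 for Cyth2, 0.70 for Decr1, 0.53 for Eif4ebp1, 0.76 for Col4a2, 0.41 for Dnmt3a, 1.06 for Stk25, -0.95 for Gbp6 and -0.83 for Pla2g2d. The genes given at 10 ppm were named for passing that same test, so their passing was fixed in advance. Those given against lung and ovary were named for their heart control difference. The tests against lung and ovary reuse the same heart libraries, so passing them is no separate support.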

How the results depend on the processing

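The 46 calls between heart controls (1.87% of probes tested) became 74 (3.02%) with DESeq2, 120 (5.49%) when only the control libraries were fitted, 330 (13.4%) with the log2 library total as a covariate, and 10 (0.408%) without animals 4, 5 and 6 of the 1,2-DCB series, an alternative added after seeing the data; leaving out 1 control at a time gave 17 to 67 (0.693% to 2.73%). Both series share animal numbers 1 to 10 in heart, but same-numbered libraries correlated at -0.106 to 0.128 in their deviations from group means, with 2 of 10 pairs over 0.1, and 3 of 20 libraries correlated best with their own number, so the numbers do not pair the animals; with the number as a replicate block in a fit of controls alone, 5.72% of probes passed, 72 higher and 53 lower. The count stayed within 1.5 times with RLE or upper quartile scaling (45 and 51), no filter (38), attenuation factors undone (44), Dbp as a covariate (52) and reads thinned to the smallest heart library (50, also added after seeing the data). All 30 named genes kept their sign in all of these fits; 8 lost the call in the fit of controls alone, all of them lower genes (H2-aa, LOC68395, H2-k1, Psmb8, C1qb, C1qa, H2-q7 and Ccl7, adjusted p = 0.0506 to 0.0800); 11 lost it with the block, 10 of them lower genes and 0610010K14RIK the higher 1, and 3 lower genes with the library total (C1qa, H2-Q6 and Ccl7). Without the filter H2-Q6, Casp1 and Ccl7 lost it, with upper quartile scaling Casp1 and with thinned reads Nr1h3. The cause of these shifts was not tested.

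At 10 ppm the 62 calls became 20 when only those groups were fitted, 40 with the total as a covariate and 4 with Dbp as a covariate, and 34 to 66 without 1 animal; the 28 differences from controls became 0 with Dbp and 17 without animals 4, 5 and 6, and 13 to 35 without 1 animal. At 1 ppm both counts were 0 to 0 without 1 animal. With Dbp as a covariate its own difference changed sign, to 0.00192 at 10 ppm and 0.00190 against controls, as that fit must remove it. In other tissues DESeq2 called 26 in liver, 47 in kidney and 27 in lung; kidney gave 5 with controls alone, 75 with the libraries labelled as not used, and 1 to 52 without 1 animal. The difference between heart and lung fell to 12 calls with attenuation factors undone, and that between heart and ovary rose to 181 without the replicate block on animals, which here marks the same mouse; heart against lung gave 31 without it. Of the 46 calls, 41 were made again in the thinned libraries.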

Other observations

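Fat, smooth muscle and nerve genes were uneven among the controls of the 1,2-DCB series. Cfd, the adipocyte protease adipsin, was at 96.1 CPM in animal 5 and 179 CPM in animal 6, against at most 48.4 CPM in the 7 animals other than 4, 5 and 6, and 0.530 to 10.7 CPM in the 1,4-DCB series. Its log2 difference of -3.56 had an adjusted p of 0.0665. Tagln, a smooth muscle actin-binding protein, was at 205 and 196 CPM in animals 5 and 6, against at most 64.3 CPM in those 7. The nerve and Schwann cell list summed to 32.1 and 43.6 CPM in these animals, against 10.999 to 16.5 CPM, and the mesothelium and epithelium list to 48.98 and 46.5 CPM, against 11.2 to 26.7 CPM. All 5 adipocyte probes were negative between the series, with 0 called and a median of -3.04, which was -1.32 without the 3 animals.

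Red cell genes also varied: the list summed to 57468 to 264843 CPM in the 1,2-DCB series, with the highest sum in animal 5, and to 56526 to 162762 CPM in the 1,4-DCB series, with 0 of 6 probes called. Their part in the other values was not tested.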
